A study of Mus musculus with 37 samples.

Results

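The mitochondrial respiratory chain subunits are nuclear-coded proteins of complexes I to IV, together with cytochrome c. They were chosen by name from a list of 49 genes, and 47 of these had a probe set that carries their symbol alone, out of 18193 genes so represented. The probe set of Ndufs6 also carries Ndufs6b, and no probe set was listed for Cox7b. A filter on low signal (a mean log2 signal of 3.60 in at least 1 group) removed Ndufb4, whose mean lay between 2.85 and 2.99 in the 4 groups, and left 46 of 13078 genes tested. These were 26 of 28 listed subunits of complex I, all 4 of complex II, all 7 of complex III, cytochrome c itself (Cycs) and 8 of 9 of complex IV. Ndufa4, first named for complex I, was counted with complex IV.

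The samples were temporal lobes of wild-type mice (WT) and of mice lacking Wfs1 (KO), on backgrounds named C57 and 129SV in the labels and C57B6 and 129S6 in the design text, called C57 and 129 here. Total RNA was hybridised to Affymetrix expression arrays, 9 each for C57 WT, C57 KO and 129 WT and 10 for 129 KO. The labels give no age, sex or litter, do not describe the Wfs1 allele, and do not state that each array is a separate animal. The p-values therefore measure the spread between arrays, which may in part be technical. Signals are log2 values as deposited and differences are log2 differences, and the number of arrays limits their precision.

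The respiratory chain passes electrons from NADH (through complex I) and from succinate (through complex II) by way of ubiquinone to complex III, from there through cytochrome c to complex IV, and finally to oxygen. Complexes I, III and IV pump protons across the inner mitochondrial membrane, and ATP synthase uses the resulting gradient. Neurons depend on this route for most of their ATP. Wfs1 encodes wolframin, a membrane protein of the endoplasmic reticulum that is mutated in Wolfram syndrome, and mitochondria exchange calcium with that organelle.

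The transcription factors NRF1, GABP (of the ETS family) and YY1 are known to bind many promoters of respiratory chain genes. RefSeq promoters (build GRCm38.p6, 250 bases before to 50 after the start site) matched 37 member genes with 39 promoters. On either strand, GCGCANGCG, letters of the NRF1 motif with N for any base, stood in 30.8% of these and in 6.25% of all 32851 promoters of the same length. The ETS letters CCGGAAG stood in 23.1% against 8.86%, and the YY1 letters AAGATGGC in 12.8% against 2.75%. At least 1 of these motifs stood in 61.5% of the member promoters and in 16.0% of all promoters, each promoter counted once. The 250 bases before the start site are printed for 3 genes on which the results turn: Ndufs5 as the gene called between strains, Cox5a as the gene with the lowest unadjusted p over both KO groups, and Uqcrh as the gene that varied most closely with the other subunits over all arrays. They are written 5′ to 3′, with a match in capitals.
Ndufs5: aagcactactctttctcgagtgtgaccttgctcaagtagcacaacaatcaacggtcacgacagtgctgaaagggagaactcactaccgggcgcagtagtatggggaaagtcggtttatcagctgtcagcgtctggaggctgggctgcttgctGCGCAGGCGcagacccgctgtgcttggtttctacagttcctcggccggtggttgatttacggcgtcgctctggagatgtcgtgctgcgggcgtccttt
Cox5a: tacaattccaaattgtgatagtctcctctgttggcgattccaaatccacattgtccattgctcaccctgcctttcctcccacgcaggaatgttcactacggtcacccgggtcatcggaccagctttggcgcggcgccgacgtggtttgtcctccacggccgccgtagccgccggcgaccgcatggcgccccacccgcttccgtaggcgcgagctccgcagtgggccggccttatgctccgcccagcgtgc
Uqcrh: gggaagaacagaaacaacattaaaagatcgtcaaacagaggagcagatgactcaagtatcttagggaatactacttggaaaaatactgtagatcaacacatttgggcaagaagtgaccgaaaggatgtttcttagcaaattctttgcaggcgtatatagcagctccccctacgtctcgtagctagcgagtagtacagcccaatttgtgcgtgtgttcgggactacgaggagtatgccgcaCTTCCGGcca
The first lies at chr4:123718187-123718436 on the minus strand, with its NRF1 letters from base -98 to base -90 relative to the start site. The second lies at chr9:57520982-57521231 on the plus strand and holds none of the 3 motifs in these bases. The third lies at chr4:116075071-116075320 on the minus strand, with the ETS letters on the opposite strand from base -10 to base -4. A match is a description of letters and not a measured binding site.

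Wfs1 itself checked the labels: its mean signal was 9.32 ± 0.17 (SD, n = 9) in C57 WT and 3.03 ± 0.26 (n = 9) in C57 KO, and 9.33 ± 0.12 (n = 9) in 129 WT and 3.11 ± 0.28 (n = 10) in 129 KO. Array medians lay between 4.30 and 4.36. All 10 neuron markers were above the filter in each group. Arrays 57 and 59, both 129 KO, stood apart for the respiratory chain, and their values are described after the comparisons. In each group the arrays were also divided into lower and higher sample numbers (19 and 18 arrays over all groups), a split taken from earlier results on these data. No label explains the numbering. Of 13078 genes, 381 were called higher and 551 lower in the higher numbers (limma, adjusted p under 0.05). Of 46 respiratory chain subunits 0 were called, and Cox8a came closest, 0.16 higher (SE 0.05, adjusted p = 0.0513 in limma). Because earlier results on these data gave the split, these counts are no test of it.

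Loss of Wfs1 in C57 was compared first, 9 KO against 9 WT arrays. No subunit passed an adjusted p of 0.05 (limma with Benjamini-Hochberg adjustment over all genes tested), where 14 of all genes, or 0.107%, did. At an unadjusted p under 0.05 the count was 3 subunits, all lower, beside 6.37% of all genes in either direction and 1.70% lower. The signs leaned one way: 37 of 46 subunits had lower means in KO, against 38.4% of all genes, with a median difference of -0.03 against 0.02 for all genes. The subunits are measured on the same arrays and vary together, so their signs are not independent. The differences were small. They ran from -0.18 to 0.06, and 40 of 46 had a 95% confidence interval that lay within 0.25 of 0.

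By complex, 21 of 26 subunits of complex I had lower means in C57 KO (median -0.04), as did 6 of 7 of complex III (median -0.03) and 8 of 8 of complex IV (median -0.03). In complex II it was 1 of 4, with a median of 0.01. The lowest unadjusted p in complex I belonged to Ndufa1, a small accessory subunit of the membrane arm. Its signal ran from 10.99 over a median of 11.07 to 11.16 in C57 WT and from 10.78 over 10.94 to 11.11 in C57 KO. The groups overlapped, with 5 of 9 KO arrays below the lowest WT array. Its difference was -0.12 (SE 0.05, adjusted p = 0.650). Ndufb5, another membrane-arm accessory subunit, followed with a difference of -0.11 (SE 0.08, adjusted p = 0.896).

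Cytochrome c, the soluble carrier between complexes III and IV, is encoded by Cycs. Its signal ran from 11.01 over a median of 11.07 to 11.14 in C57 WT and from 10.75 over 10.97 to 11.12 in C57 KO, and 6 of 9 KO arrays lay below the lowest WT array. The difference was -0.12 (SE 0.06, adjusted p = 0.776). The next probe sets of Cycs by signal gave -0.13 and -0.09, while another, dim one gave 0.18.

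In complex II, Sdhc and Sdhd anchor the enzyme in the membrane and Sdha carries its flavin. Sdhc differed by -0.05 (SE 0.06, adjusted p = 0.966) and Sdhd by 0.06 (SE 0.08, adjusted p = 0.974) in C57. In complex III the core proteins Uqcrc1 and Uqcrc2 differed by 0.06 (SE 0.05, adjusted p = 0.936) and -0.06 (SE 0.06, adjusted p = 0.951 by limma). None of these differences exceeded the spread between arrays. Second probe sets gave -0.03 for Sdhc, -0.11 for Sdhd (a dim one) and -0.01 for Uqcrc2.

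Cox5a, a nuclear-coded subunit that packs against the catalytic core of complex IV, was the one member at an unadjusted p under 0.05 in both strains. Its signal was 11.29 ± 0.10 (SD, n = 9) in C57 WT and 11.18 ± 0.09 (n = 9) in C57 KO. It was 11.29 ± 0.08 (n = 9) in 129 WT and 11.18 ± 0.07 (n = 10) in 129 KO. The C57 WT arrays ran from 11.14 over a median of 11.31 to 11.46 and the KO arrays from 11.05 over 11.19 to 11.30. The 129 WT arrays ran from 11.16 over a median of 11.28 to 11.47 and the KO arrays from 11.08 over 11.17 to 11.31. The groups overlapped in both strains, with 3 of 9 C57 KO arrays and 3 of 10 129 KO arrays below the lowest WT array of their strain. In 129, 9 of 10 KO arrays lay below the WT median. The differences were -0.11 (SE 0.05, adjusted p = 0.703) in C57 and -0.11 (SE 0.04, adjusted p = 0.9997) in 129. These comparisons share no arrays, but their p-values share 1 estimate of the spread from all 37 arrays. Cox5a was also picked from 46 subunits by its p. Averaged over the strains the difference was -0.11 (SE 0.03, unadjusted p = 0.00173), with an adjusted p of 0.645 over all genes in limma. The other probe sets of Cox5a gave -0.05 and -0.07 in C57 and -0.02 and -0.08 in 129. Within the number sets the 129 difference was -0.17 among the lower numbers and -0.04 among the higher ones, and the C57 difference was -0.08 and -0.14.

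**Figure D1:**
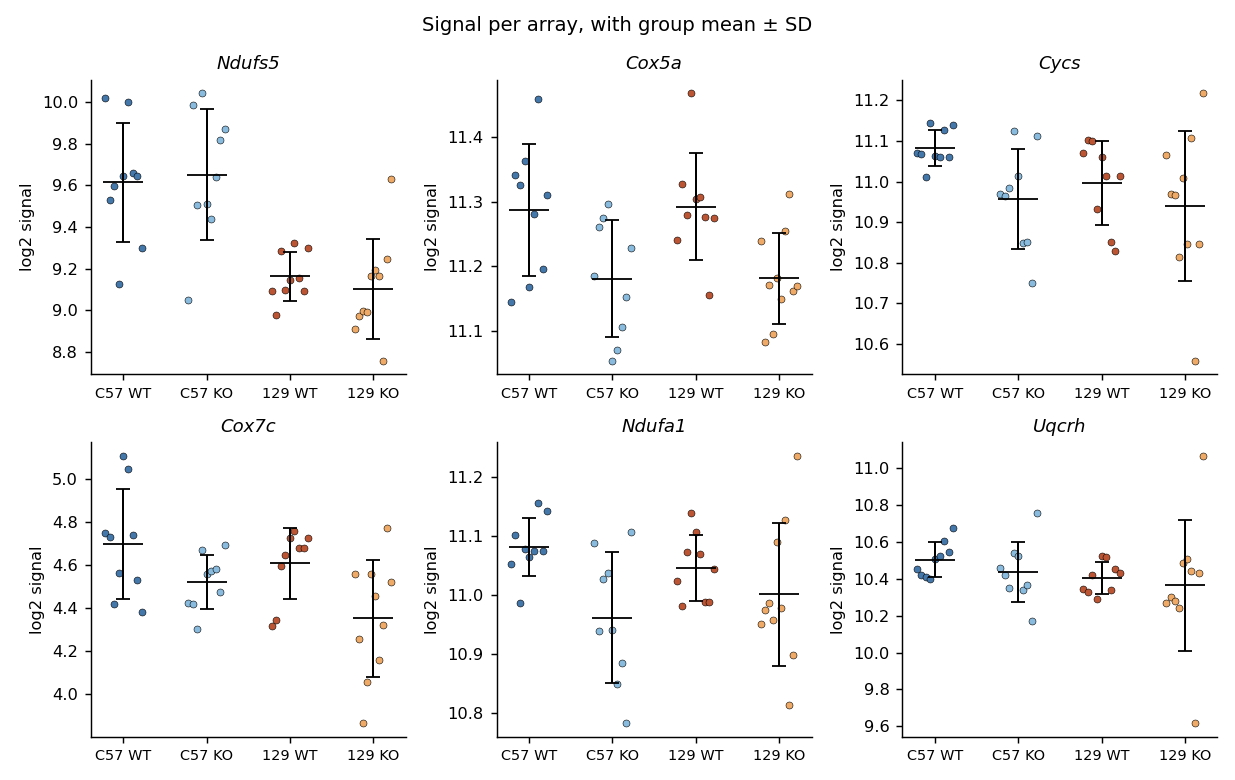
Signal (log2, vertical axis) of 6 respiratory chain genes on each array, by group, with bars for the group mean ± SD. Ndufs5 has lower means in both 129 groups (9.16 and 9.10) than in the C57 groups (9.61 and 9.65), and Cox5a has a mean of 11.18 in both KO groups against 11.29 in both WT groups, with overlapping arrays. The highest and lowest 129 KO points of Uqcrh, 11.07 and 9.62, are arrays 59 and 57.

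Loss of Wfs1 in 129 was compared between 10 KO and 9 WT arrays. No subunit was called, and Wfs1 was the single gene called among all tested (0.00765%). The unadjusted count was 2 subunits, both lower and both of complex IV, beside 2.13% of all genes in either direction and 1.25% lower. Means were lower in KO for 30 of 46 subunits, against 52.4% of all genes, with a median difference of -0.02 against 0.00 for all genes (-0.0037). The differences ran from -0.26 to 0.06, and 44 of 46 intervals lay within 0.25 of 0. This count of lower means moved both ways with single arrays left out, from 16 to 42 of 46 (medians from -0.06 to 0.02). Without array 57 it was 16 of 46, with a median of 0.02, and without both arrays 57 and 59 it was 35 of 46.

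By complex, lower means in 129 KO were found for 15 of 26 subunits of complex I (median -0.01), 1 of 4 of complex II (0.02), 6 of 7 of complex III (-0.03) and 7 of 8 of complex IV (-0.05). Cox7c, a small membrane subunit of complex IV, had the largest difference in 129, but its probe set was dim. Its signal ran from 4.32 over a median of 4.68 to 4.76 in 129 WT and from 3.86 over 4.39 to 4.77 in 129 KO. In 129 KO, 4 of 10 arrays lay below the lowest WT array and 1 above the highest. The difference was -0.26 (SE 0.10, adjusted p = 0.9997), and in C57 it was -0.18 (SE 0.10, adjusted p = 0.840). Its second probe set, with a mean of 2.47, was below the filter.

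Among complex I subunits in 129, Ndufa5 and Ndufa8, both accessory proteins of the complex, differed by -0.10 (SE 0.07) and 0.06 (SE 0.05). Sdha and Sdhd differed by 0.04 (SE 0.05) and 0.02 (SE 0.08), Uqcrc1 and Uqcrc2 by -0.08 (SE 0.05) and -0.07 (SE 0.06), and Cycs by -0.06 (SE 0.06). The adjusted p was 0.9997 for each of these 7 genes in limma. Sdhd had a lower mean in KO without arrays 57 and 59. Second probe sets gave -0.06 for Ndufa5, -0.02 for Sdha, 0.02 for Sdhd (a dim one) and 0.02 for Uqcrc2. The next 2 of Cycs by signal gave 0.00 (0.0015) and -0.08.

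**Figure D2:**
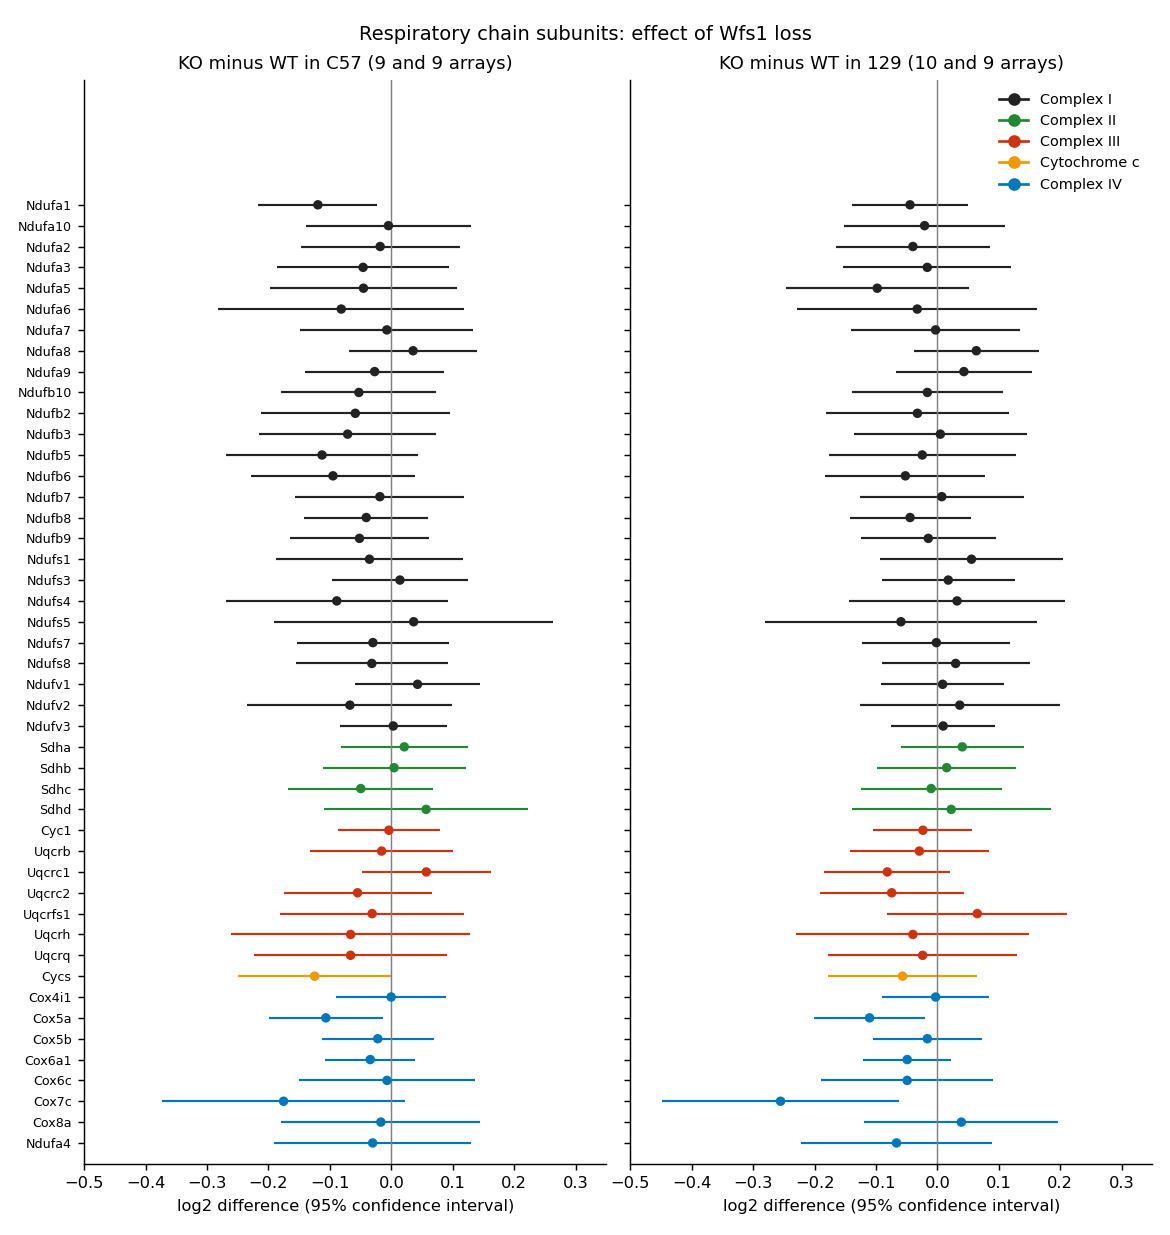
KO minus WT difference (log2, horizontal axis) with its 95% confidence interval for each of the 46 subunits tested, coloured by complex, in C57 on the left and 129 on the right. In C57, 37 points lie left of 0, and in 129, 30 do. No subunit has an adjusted p under 0.05 in either panel.

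The mean KO effect over both strains gave 0 called subunits, where 3 of all genes (0.0229%) were called. At an unadjusted p under 0.05 there were 4, Cox5a, Cox7c, Ndufa1 and Cycs, all lower in KO, beside 4.95% of all genes in either direction and 1.99% lower. Means were lower for 35 of 46 subunits, against 42.0% of all genes. Cox7c differed by -0.22 (SE 0.07, adjusted p = 0.684), Ndufa1 by -0.08 (SE 0.03, adjusted p = 0.931) and Cycs by -0.09 (SE 0.04, adjusted p = 0.983). Means were lower in both strains for 28 of 46 subunits and higher in both for 7, while 21.1% of all genes were lower in both. The difference of the KO effects between C57 and 129 gave 0 called subunits and 0 at an unadjusted p under 0.05, beside 0.0153% and 3.34% of all genes. It was below 0 for 29 of 46 subunits, against 40.3% of all genes, with a median of -0.02. That count was 13 of 46 without 129 KO array 59 and 11 of 46 among the lower sample numbers. The median SE of that difference was 0.09, and 30 of 46 of its confidence intervals lay within 0.25 of 0.

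The sign lean in C57 was not even across the sample numbers. Among the lower numbers 22 of 46 subunits had lower means in C57 KO (median 0.00, or 0.0048), and among the higher numbers 39 of 46 did (median -0.06). In 129 the counts ran the other way, 33 of 46 (median -0.05) among the lower numbers and 20 of 46 (median 0.01) among the higher ones. With each array set to a common median, 41 of 46 subunits were lower in C57 KO, and 30 of 46 in 129 KO. Other probe sets of the members that passed the filter, 46 in all, were lower in 36 cases in C57 KO and in 27 cases in 129 KO.

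Markers of striatum and oligodendrocytes leaned the same way as the subunits in both strains. In C57 KO, 8 of 10 neuron, 5 of 8 astrocyte, 6 of 8 microglia and 4 of 6 endothelial markers had higher means instead. In 129 KO, 6 of 10 neuron, 6 of 8 astrocyte and 4 of 6 endothelial markers had lower means, and 5 of 8 microglia markers had higher means. Of 3 hippocampus markers 2 and 3 had higher means. Of 4 choroid plexus markers 3 had lower means in each strain (medians -0.18 and -0.03). Kl, 1 of these markers, passed the filter in C57 WT alone (3.81, against 3.55 in C57 KO), so its lower C57 KO mean shows no lean. The median deviation of these markers had group medians of -0.10 in C57 WT and -0.08 in C57 KO. In 129 they were -0.09 in WT and -0.05 in KO. Its highest values were 1.67 on C57 WT array 34 and 0.90 on 129 WT array 72. All 10 striatum markers tested had lower means in C57 KO (median -0.40, 10 at an unadjusted p under 0.05, 0 called), and their summed log2 signal ran from 80.7 to 91.3 over C57 WT arrays and from 78.3 to 87.9 over C57 KO arrays. Of 8 oligodendrocyte markers 7 had lower means (median -0.17), with sums from 68.8 to 74.1 and from 66.2 to 73.6. In 129 KO all 10 striatum markers (median -0.14) and all 8 oligodendrocyte markers (median -0.08) had lower means too, with 0 at an unadjusted p under 0.05. Their sums ran from 82.7 to 88.3 over 129 WT arrays and from 79.8 to 87.1 over 129 KO arrays for striatum, and from 67.8 to 70.9 and from 66.8 to 71.3 for oligodendrocytes. In the mean KO effect 9 striatum markers and 1 oligodendrocyte marker were lower at an unadjusted p under 0.05. No defining marker of the striatum or oligodendrocyte list was below the filter in any group. The part of all these markers in the subunits' differences was not tested. In whole tissue, fewer cells of a type and less RNA per cell cannot be told apart.

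The strains were compared in WT and in KO arrays, 2 comparisons that share no arrays with each other. They do share 1 estimate of the spread, and their groups with the KO comparisons above. Ndufs5, an accessory subunit at the intermembrane-space side of complex I, was the one subunit called in either. Called genes made up 2.06% of all genes in WT (1.09% lower in 129) and 3.06% in KO (2.16% lower), so 1 of 46 subunits is near the background. At an unadjusted p under 0.05 there was 1 subunit in WT and there were 3 in KO (Ndufs5, Sdhc and Uqcrc1), beside 11.6% and 12.3% of all genes. Means were lower in 129 for 33 of 46 subunits in WT (median -0.03) and for 25 of 46 in KO (median -0.01), while 42.1% and 53.5% of all genes were lower. The KO count was 15 of 46 without array 57 and 38 of 46 without array 59. Among the lower sample numbers the counts of lower means were 25 in WT and 35 in KO, and among the higher numbers 40 and 15.

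Ndufs5 signal ran from 9.13 over a median of 9.64 to 10.02 in C57 WT, and from 9.05 over 9.64 to 10.04 in C57 KO. It ran from 8.98 over a median of 9.15 to 9.32 in 129 WT, and from 8.76 over 9.08 to 9.63 in 129 KO. In WT the strains overlapped through the low C57 arrays 29 (9.13) and 42 (9.30). In KO they overlapped through the low C57 array 1 (9.05) and the high 129 array 59 (9.63), which lay close to the C57 KO median. All 9 WT arrays of 129 and all 10 KO arrays lay below the C57 mean of their genotype. The difference between 129 and C57 was -0.45 in WT (SE 0.11, adjusted p = 0.0223), a linear ratio of 0.731, and -0.55 in KO (SE 0.11, adjusted p = 0.00216), a linear ratio of 0.684. The WT call was lost without C57 WT array 25 (-0.40, adjusted p = 0.0503) or array 34 (-0.40, adjusted p = 0.0575), and the KO call held without any single array. Within the number sets the WT difference was -0.45 (adjusted p = 0.310) and -0.43 (adjusted p = 0.178), and the KO difference -0.61 (adjusted p = 0.0495) and -0.49 (adjusted p = 0.231), each in limma on the 19 or 18 arrays of that set. The KO effect on Ndufs5 was 0.04 (SE 0.11) in C57 and -0.06 (SE 0.11) in 129.

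A single probe set measures Ndufs5, and the annotation also holds a pseudogene named Ndufs5-ps, so the signal cannot be assigned to the gene alone. A sequence difference between the strains under the probes was not tested. Among 30 tested genes within 50 annotated genes on either side of Ndufs5, 0 were called between strains in WT and 3 in KO. Over all genes 2.06% were called in WT and 3.06% in KO. The 3 neighbours were Ppt1 (0.21) and Cap1 (1.38), higher in 129, and Heyl (-0.38), lower in 129. Their WT differences had the same signs, 0.16 (SE 0.06) for Ppt1, 1.00 (SE 0.35) for Cap1 and -0.21 (SE 0.10) for Heyl.

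**Figure D3:**
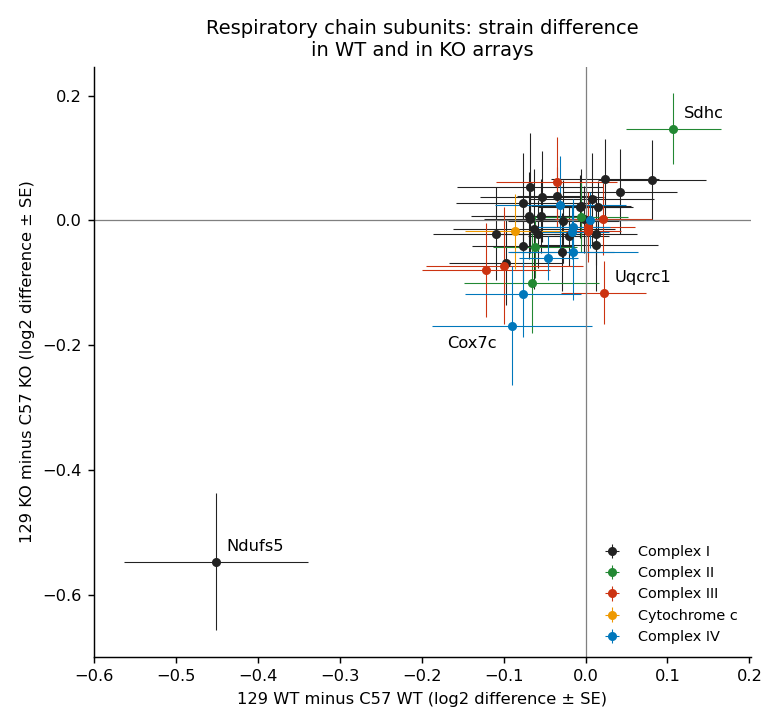
Difference between 129 and C57 (log2, with SE bars) in WT arrays on the horizontal axis and in KO arrays on the vertical axis, 1 point per subunit, coloured by complex. Ndufs5 stands at -0.45 and -0.55, apart from the other 45 subunits, which lie between -0.17 and 0.15 on both axes.

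On their brightest probe sets the remaining subunits differed less between strains, from -0.17 (Cox7c in KO, a dim probe set) to 0.15 (Sdhc in KO). Sdhc was 0.11 higher in 129 WT (SE 0.06, adjusted p = 0.514) and 0.15 higher in 129 KO (SE 0.06, adjusted p = 0.200). Its second probe set gave 0.03 and 0.07. Its signal was 8.88 ± 0.13 (SD, n = 9) in C57 WT, 8.83 ± 0.16 (n = 9) in C57 KO, 8.99 ± 0.09 (n = 9) in 129 WT and 8.98 ± 0.09 (n = 10) in 129 KO. Uqcrc1 differed by 0.02 (SE 0.05, adjusted p = 0.954) in WT and by -0.12 (SE 0.05, adjusted p = 0.297) in KO. In complex IV, Cox6c differed by -0.08 (SE 0.07) and -0.12 (SE 0.07), and Cox6a1, which lies on chromosome 5 with Wfs1, by -0.05 (SE 0.04) and -0.06 (SE 0.04). In complex III, Uqcrq differed by -0.12 (SE 0.08) and -0.08 (SE 0.08), and in complex I, Ndufb5 differed by -0.11 (SE 0.08) in WT and Ndufb6 by 0.07 (SE 0.06) in KO. In WT and KO, Uqcrh differed by -0.10 and -0.07, Sdha by -0.06 and -0.04 and Sdhd by -0.07 and -0.10. Cycs differed by -0.09 and -0.02, and Cox7c by -0.09 and -0.17. None of these passed the test. Second probe sets gave -0.05 and -0.06 for Cox6c, -0.06 and -0.06 for Cox6a1, -0.10 for Ndufb5 in WT and 0.00 (0.0043) for Ndufb6 in KO.

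Within groups, subunit signals were correlated across arrays. Other chain subunits, ATP synthase genes and ribosomal proteins correlated with them about as closely, and the remaining lists less so. After group means were removed, Pearson's r between members had a median of 0.49 over 1035 pairs and 37 arrays, and 89.8% of pairs were above 0, against a median of 0.03 for all pairs of tested genes. The median r of the subunits was 0.51 with ATP synthase genes, 0.51 with other chain subunits and 0.47 with 43 ribosomal proteins (a list chosen after the data were seen), so the correlation was not particular to the subunits. It was 0.36 with assembly factors, 0.34 with enzymes of the tricarboxylic acid cycle and -0.02 with regulators of mitochondrial gene expression. With cell type markers it was 0.26 for microglia, 0.17 for oligodendrocytes, 0.14 for striatum, -0.06 for astrocytes and -0.30 for neurons. Pairs within complex I had a median r of 0.58, within complex III 0.38, within complex II 0.33 and within complex IV 0.29, and pairs between complexes had 0.42. Over all arrays the subunit closest to the others was Uqcrh, the hinge protein that links cytochrome c1 to cytochrome c (median r 0.72), followed by Ndufb2 (0.71) and Ndufs4 (0.69). Cox5a (-0.09), Uqcrc1 (-0.09) and Ndufv1, the NADH-binding subunit (0.09), were lowest. These correlations are descriptions over arrays that share groups and normalization.

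Much of this rested on arrays 57 and 59, the lowest and highest of 129 KO in their median over the subunits. Weaker correlation without these extremes could therefore be foreseen. Without them the median r was 0.22 between members (74.0% of pairs above 0), 0.23 with ATP synthase genes, 0.16 with other chain subunits, 0.20 with ribosomal proteins and 0.04 between all genes. It was then 0.15 with assembly factors, 0.15 with enzymes of the tricarboxylic acid cycle and 0.01 with the regulators. For markers it was 0.15 with microglia, 0.10 with oligodendrocytes, 0.17 with striatum, -0.04 with astrocytes and -0.02 with neurons. Pairs within complex I then had a median r of 0.26, within complex III 0.21, within complex II 0.35 and within complex IV 0.09, and pairs between complexes had 0.20. Complex II then stood highest, but on only 6 pairs among 4 genes, against 325 pairs in complex I, 21 in complex III and 28 in complex IV. The order of the subunits changed as well. The closest to the others were Ndufb10 (0.39) and Ndufa6 (0.37), ahead of Uqcrh (0.36), while Ndufs5 (-0.01, from 0.27 with all arrays) and Cox7c (0.04) were lowest. Cox5a stood at 0.08, Uqcrc1 at 0.06 and Ndufv1 at 0.16.

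**Figure D4:**
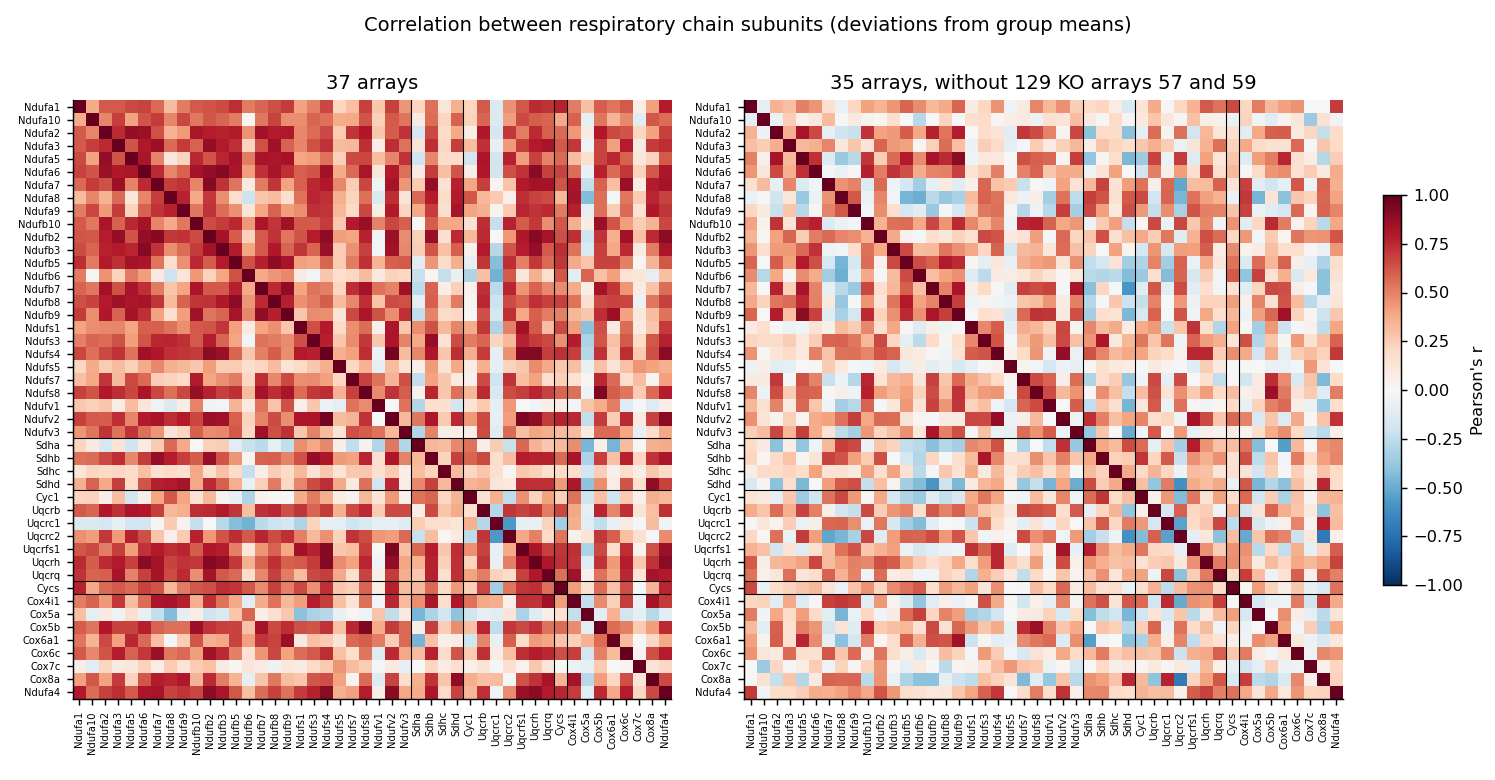
Pearson's r between the 46 subunits over arrays after removal of group means, ordered by complex, with lines between complexes and red for positive r. The left panel uses 37 arrays (median r 0.49 over pairs) and the right panel 35 arrays without 57 and 59 (median r 0.22), where the colours are paler.

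On array 57, 4 of 46 subunits were above their mean over all arrays, with a median deviation of -0.28, and on array 59, 42 of 46 were above it, with a median of 0.34. The subunit score, the median deviation over the 46 subunits, stayed between -0.08 and 0.12 over C57 KO arrays, between -0.02 and 0.07 over C57 WT arrays and between -0.06 and 0.07 over 129 WT arrays. Uqcrh read 9.62 on array 57 and 11.07 on array 59, around a 129 KO median of 10.37. By complex, the deviations on arrays 57 and 59 were -0.27 and 0.38 for complex I, -0.23 and 0.26 for complex II, -0.44 and 0.28 for complex III, -0.43 and 0.22 for Cycs and -0.21 and 0.23 for complex IV.

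Other groups of genes deviated on these arrays too. ATP synthase subunits stood at -0.21 and 0.28, assembly factors at -0.26 and 0.39, enzymes of the tricarboxylic acid cycle at -0.25 and 0.21, and the 43 ribosomal proteins at -0.28 and 0.34. Neuron markers went the opposite way, 0.24 and -0.52, and microglia markers stood at -0.12 and 0.32. The median over all genes was -0.01 and 0.02. Array 59 had the largest root mean square deviation from its group over all genes, 129 WT array 73 the second and array 57 the third. The part of these markers in the subunits' spread was not tested.

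**Figure D5:**
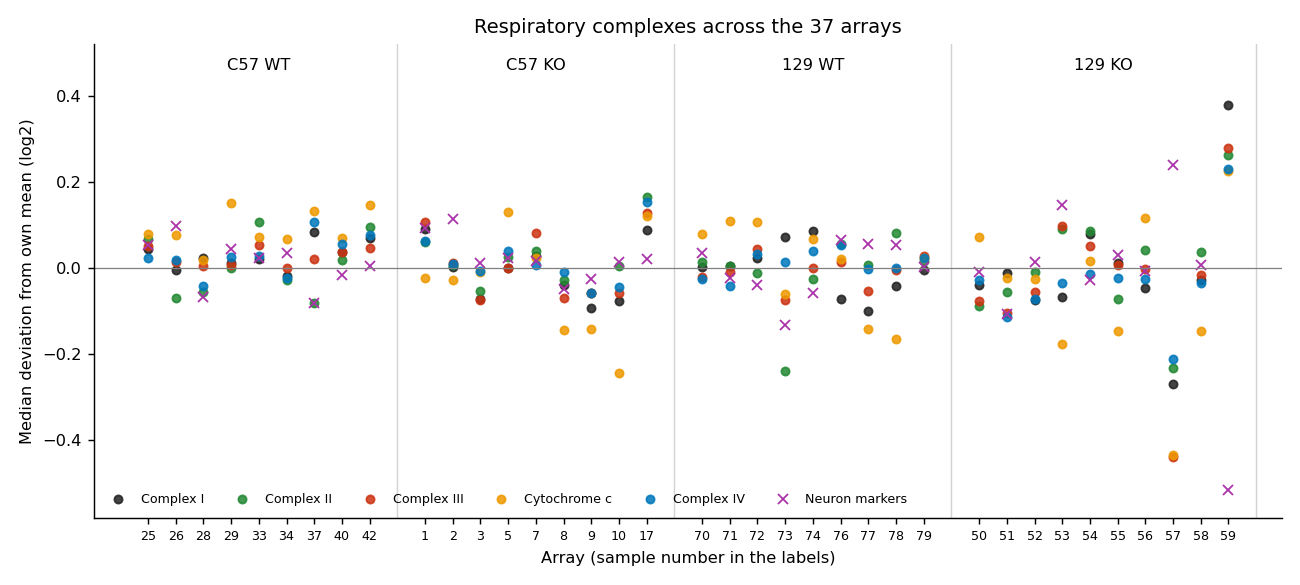
Median deviation of each complex from its own mean over all arrays (log2, vertical axis) on each of the 37 arrays, by group and sample number, with neuron markers as crosses. Arrays 57 (complex I at -0.27, neuron markers at 0.24) and 59 (0.38 and -0.52) lie outside the range of the other arrays for complexes I, III and IV and the neuron markers.

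Arrays 57 and 59 had the lowest and highest subunit scores of 129 KO. A narrower spread without them could be foreseen and is a description only. The median SD of a subunit was 0.09 in 129 WT and 0.21 in 129 KO, and 41 of 46 subunits were wider in KO, beside 74.9% of all genes. Without arrays 57 and 59 the median SD in 129 KO was 0.10, and 29 of 46 subunits were wider, beside 59.2% of all genes. In C57 the median SD was 0.07 in WT and 0.09 in KO, with 34 of 46 wider in KO, beside 61.5% of all genes.

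Genes around the chain were described from lists chosen with earlier results known. Among 15 further subunits of complexes I, III and IV that passed the filter, 14 had lower means in C57 KO (median -0.02) and 12 in 129 KO (median -0.04), and 0 were called. Of 17 subunits and regulators of ATP synthase, 14 had lower means in C57 KO (median -0.04) and 13 in 129 KO (median -0.03), and 0 were called. Of 15 enzymes of the tricarboxylic acid cycle, 10 and 5 had lower means (medians -0.01 and 0.01). Of 34 assembly factors, 15 and 14 had lower means, and 1 was called in C57.

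The called assembly factor was Cox18, an inner-membrane insertase for a mitochondrially encoded subunit of complex IV, whose gene lies on the chromosome of Wfs1. Its signal was 6.62 ± 0.17 (SD, n = 9) in C57 WT, 7.00 ± 0.24 (n = 9) in C57 KO, 7.20 ± 0.13 (n = 9) in 129 WT and 7.28 ± 0.15 (n = 10) in 129 KO. It rose by 0.39 in C57 KO (SE 0.08, adjusted p = 0.0285) and differed by 0.08 in 129 KO (SE 0.08, adjusted p = 0.9997). The difference between these effects was 0.31 (SE 0.11, adjusted p = 0.999). Between strains it was 0.59 higher in 129 WT (SE 0.08, adjusted p = 1.30e-05) and 0.28 higher in 129 KO (SE 0.08, adjusted p = 0.0381).

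Of 12 regulators of mitochondrial gene expression, 0 were called for loss of Wfs1, and Nrf1 was called between strains in WT. Nrf1 encodes the factor whose letters were searched above. It was 0.41 higher in 129 WT (SE 0.11, adjusted p = 0.0367) and differed by 0.10 in 129 KO (SE 0.11, adjusted p = 0.815). Among cell type markers, S100b, an astrocyte gene, was called between strains in KO (-0.25, SE 0.05, adjusted p = 0.00528). All 8 astrocyte markers had lower means in 129 KO (median -0.12, 4 at an unadjusted p under 0.05), and 5 of 8 in 129 WT (median -0.01). Of 8 microglia markers 6 had lower means in 129 in both genotypes (medians -0.14 in WT and -0.17 in KO, with 4 and 5 at an unadjusted p under 0.05). Of 8 oligodendrocyte markers 7 had lower means in both genotypes (medians -0.20 and -0.13, with 4 and 2 at an unadjusted p under 0.05). Of 10 striatum markers 8 were lower in 129 WT (median -0.03), while 9 were higher in 129 KO (median 0.17, 4 at an unadjusted p under 0.05). S100b was the one gene called among these 4 lists, and their part in the strain differences of the subunits was not tested.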

How the data were processed

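The deposited table held log2 probe set signals for 45101 probe sets on 37 arrays, taken to be normalized between arrays before deposit. Per the submitters' processing notes MAS5 and GCRMA were used, with no version or role given. The values were used as deposited. The 64 controls were dropped, as were 932 probe sets annotated to more than 1 gene and 9160 without a symbol. Where a gene had several probe sets, the brightest on average was taken. Genes were tested if a group mean reached the 40th percentile of all probe set averages. Groups came from the sample titles.

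Group means were estimated in limma 3.58.1 (R 4.3.3) from the 37 arrays together and compared in 6 contrasts, with 2-sided p-values adjusted by Benjamini-Hochberg over 13078 genes and a threshold of 0.05. The fit was tested on simulated data. Python 3.11.15, NumPy 2.4.6 and pandas 2.3.3 made the summaries and matplotlib 3.10.9 the plots. Named were every called subunit, per complex and comparison the 2 subunits with the lowest p (1 for cytochrome c), up to 3 called genes of each other list, Cox18 and Wfs1. Genes named by their correlation, and neighbours of Ndufs5, were chosen after their values were seen. The NRF1 letters were shortened by 1 base after a longer form, found in fewer promoters of the members and of all genes, had been searched. The members and lists were chosen with earlier results of these data known. Alternatives were other filters, normalizations, probe set summaries, fits and covariates, each number set alone, and each array left out.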

Additional observations from a re-analysis of the deposited data

Results flagged for a closer look

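A gap test for a single distant array (Dixon's, at the 95% level) was run on 92 groups of values of the named subunits and complex scores, and it marked 9, where chance marks about 1 in 20 groups. In C57 KO it marked Sdhd as high on array 17, at 9.20. In 129 WT it marked array 73, the array with the largest 3′ to 5′ actin difference (2.76), as low for Ndufa8 at 9.47, for Sdha at 9.70 and for the complex II score at -0.24, and as high for Cox6a1 at 12.69. In 129 KO it marked array 59 as high for Ndufb5 at 10.83, for Sdhd at 9.53 and for the complex IV score at 0.23, and array 57 as low for Cox6c at 10.66.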

How the results depend on the processing

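The count of called subunits for loss of Wfs1 was 0 in both strains, in their mean and in their difference under each alternative and with each array left out. Between strains the called subunit, Ndufs5, kept its direction throughout. The count in WT was 0 within each number set and ran from 0 to 1 with single arrays left out, and the count in KO was 0 among the higher numbers. Reversed differences were all far from the threshold. For Sdhd in C57 KO it was -0.026 with the mean of probe sets, and for Sdhd in 129 KO it was -0.071 with array weights, -0.015 among the higher numbers, -0.025 with the actin difference as covariate and -0.0041 without arrays 57 and 59, with a range of -0.049 to 0.071 over single arrays left out. Ndufb6 between strains in KO was -0.011 among the lower numbers. Among the higher numbers Ndufa5, Sdha and Uqcrc2 in 129 KO were 0.024, -0.033 and 0.049, and Cycs between strains in KO was 0.025, and -0.048 to 0.025 over single arrays left out. The cause was not tested.

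Counts over all genes moved more. For C57 KO they were 7 with only the groups compared, 4 and 5 within the number sets and 6 to 17 over single arrays left out. For the mean KO effect they were 5 with quantile normalization and with median centring, 10 with array weights, 1 among the higher numbers and 3 to 5 over single arrays left out. For the difference of the KO effects they were 1 and 0 within the number sets, and 2 to 4 over single arrays left out. For strain in WT they were 678 with array weights and 59 and 117 within the number sets, and for strain in KO 257 with only the groups compared and 256 and 28 within the number sets. Median centring moved the count of lower subunits from 29 to 37 of 46 for the difference of the KO effects and from 35 to 40 for their mean. Within the lower numbers the count for that difference was 11, and without array 59 it was 13. Among the higher numbers the strain count in KO was 15. No paired analysis was possible because the groups share no sample numbers.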
